A study of Bos taurus with 147 samples.

Results

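The subunits of the respiratory chain and of ATP synthase were described in the adrenal cortex of 145 cows. They were 84 of the 10986 transcripts measured, and each was taken because the array's annotation gave it a single gene symbol that begins with NDUFA, NDUFB, NDUFC, NDUFS, NDUFV, SDHA, SDHB, SDHC, SDHD, UQCR, COX4, COX5, COX6, COX7, COX8 or ATP5, or that is CYCS or CYC1. Each symbol was represented by 1 transcript. Of the 84, 33 belonged to complex I, 3 to complex II, 8 to complex III including CYC1, 12 to complex IV including NDUFA4, and 16 to ATP synthase. Cytochrome c (CYCS) and the ATP synthase inhibitor ATP5IF1 added 1 each, and the prefixes also took in 6 assembly factors of complex I (NDUFAF genes) and 4 of complex II (SDHAF genes), which help to build a complex but are not part of it. Another 12 transcripts named COX5B, COX6B1, COX7B, COX7C, ATP5MK, NDUFA2, NDUFB8, SDHC or UQCRC2 together with further genes were not members.

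The animals were all female, the F2 generation of crossing Charolais with German Holstein, kept in 1 barn with the same feeding and slaughtered at day 30 after parturition in the second lactation at an age of 1127 to 1774 days (mean 1321 ± 120.4 SD). The labels place them in 25 classes of year and season of slaughter, with 2 to 13 cows each. The classes, written in the labels from summer2004 and autumn2004 to autumn2011, covered 8 years, a winter being counted for the year in which it began. From the first year to the last there were 7, 11, 6, 22, 39, 24, 21 and 15 cows, so that 2008 was the fifth year and 2011 the last. The labels name no treatment, so the comparisons were between years, seasons, ages and single cows. The cows came from related families, and those of a class shared a slaughter period. The pedigree was not analysed here, and p-values that treat cows as independent may be too small.

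The respiratory chain lies in the inner mitochondrial membrane. Complexes I and II pass electrons from NADH and succinate to ubiquinone, complex III hands them to cytochrome c and complex IV to oxygen, and ATP synthase uses the proton gradient that complexes I, III and IV build up. Most subunits are encoded in the nucleus, and those described here all are. In the adrenal cortex, mitochondria also carry out the first step of steroid synthesis through CYP11A1, which receives its electrons from NADPH over ferredoxin (FDX1) and not from the respiratory chain.

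Each cow was measured on 1 array, and the values are log2 signals normalised over the whole array, so that a change of a transcript is relative to all others. Single arrays correlated with the others with a median r of 0.973. The 5 arrays with the lowest median correlations, 0.950 to 0.957, are called those that stood apart. They were taken by rank and not by a cutoff, and the rest began close above them, at 0.958. The first principal component held 27.1% of the variance of the values and 28.9% of the variance that was left once class means and age had been removed. Of the markers of adrenocortical cells, 8 were measured, with mean log2 signals of 13.1 for CYP11A1 and 13.8 for HSD3B1, enzymes of steroid synthesis. Markers of the chromaffin cells of the medulla were present as well: the mean log2 signal of the 10 measured genes (CHGA, CHGB, SCG2, SCG5, TH, DBH, PNMT, DDC, NPY and PENK) ran from 7.22 to 11.5 over cows, although the medulla had been dissected away. In bulk tissue, fewer cells of a type and less RNA per cell cannot be told apart.

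The question of the first comparison was whether transcript levels moved with the year of slaughter, which together with season formed a fixed effect in the study's own model. The 84 transcripts were mostly higher in later years. In the limma fit of a linear slope on year, 67 of the 84 (79.8%) were higher with year at an adjusted p under 0.05, against 25.7% of all transcripts. Only UQCRFS1 and NDUFAF1 were lower, 2 of 84 (2.38%) against 19.2% of all transcripts, and 15 passed in neither direction. The median slope was 0.0476 on the log2 scale per year over the 84 and 0.00255 over all transcripts. Year of slaughter, storage time of the frozen tissue and the order of collection cannot be told apart in this design. The labels give no order or batch of RNA extraction or arrays, so a part of these cannot be told apart from year either.

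**Figure D1:**
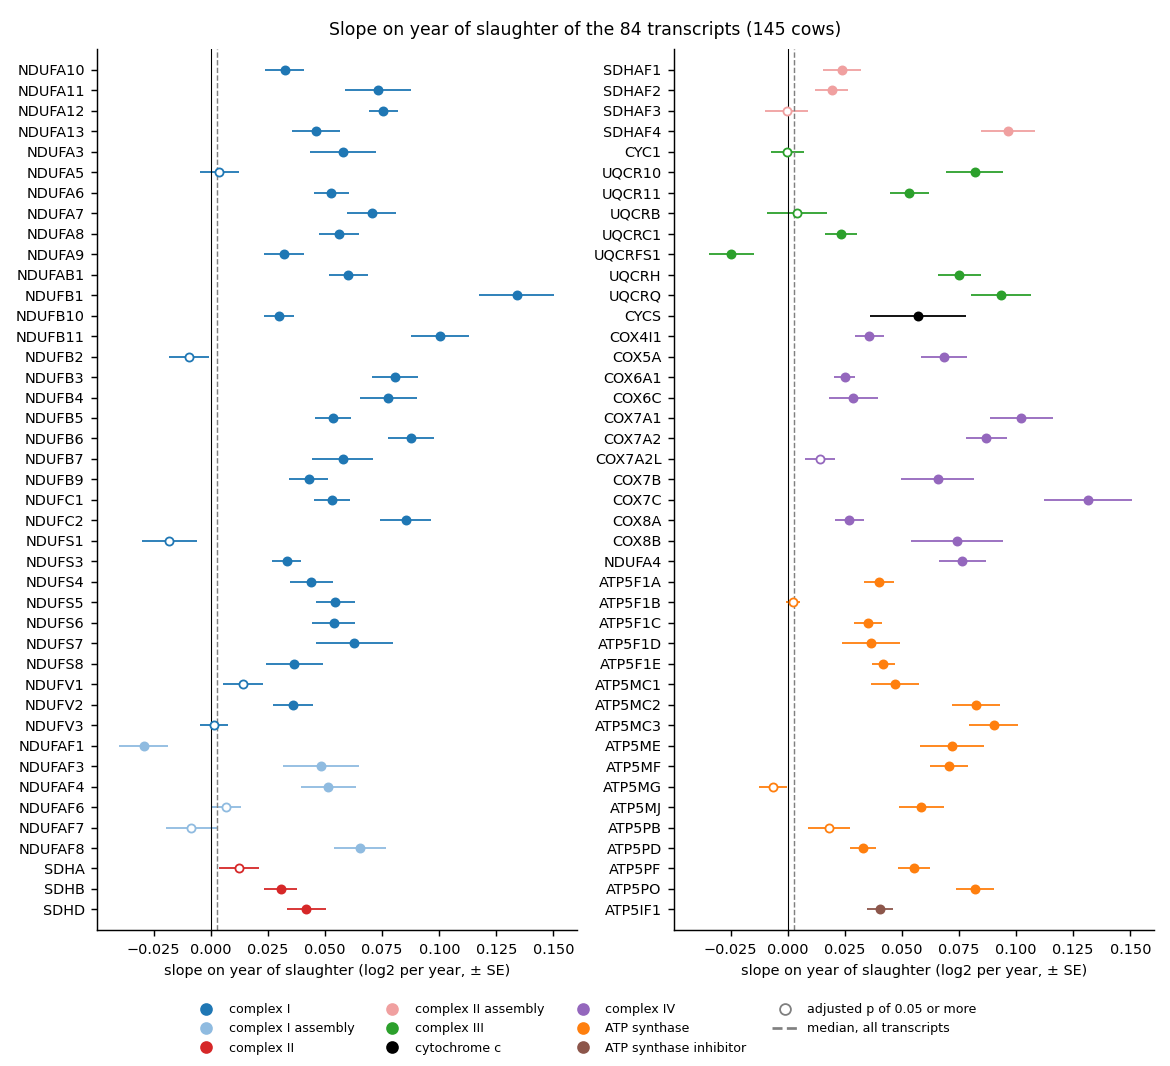
Slope on year of slaughter (log2 signal per year, horizontal axis) for each of the 84 transcripts, with bars of 1 SE and colours for the complexes, filled where the adjusted p was under 0.05. The 67 filled points right of 0 reach from SDHAF2 at 0.0192 to NDUFB1 at 0.134, and only UQCRFS1 and NDUFAF1 are filled on the left.

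Complex I, which oxidises NADH, had 28 of 33 transcripts higher with year and none lower. Among them were 24 of the 27 accessory subunits, which surround and stabilise the catalytic core, and 4 of the 6 core subunits measured (NDUFS3, NDUFS7, NDUFS8 and NDUFV2). The slope was largest for NDUFB1, an accessory subunit of the membrane arm. Its log2 signal was 6.20, 6.54 and 7.03 for the lowest, median and highest cow of the first year, and 6.79, 7.23 and 7.69 in 2011. The ranges overlapped, but 11 of the 15 cows of 2011 lay above every cow of the first year. The medians of 2011 and the first year differed by 0.69, or 1.61-fold, and the slope was 0.134 ± 0.0166 (SE) per year (adjusted p = 2.50e-11).

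NDUFA12, another accessory subunit, had a smaller slope with the smallest adjusted p of the 84. Its lowest, median and highest signals were 10.69, 10.86 and 10.96 in the first year and 11.07, 11.28 and 11.55 in 2011. Here all 15 cows of 2011 lay above all 7 cows of the first year. The medians in the years between were 10.89, 10.81, 11.01, 11.03, 11.20 and 11.33, so that the highest median was that of 2010. The slope was 0.0755 ± 0.00641 per year (adjusted p = 9.41e-19), and the medians of 2011 and the first year differed 1.34-fold. NDUFB6 and NDUFB11, both of the membrane arm, moved likewise. NDUFB6 rose by 0.0876 ± 0.00994 per year (adjusted p = 9.94e-13), with 14 of 15 cows of 2011 above every cow of the first year. NDUFB11 rose by 0.1005 ± 0.0127 per year (adjusted p = 5.17e-11), with 10 of 15 such cows.

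Of the 5 complex I transcripts that did not pass, NDUFS1 and NDUFV1 encode core subunits of the NADH-oxidising arm: NDUFS1 is the largest core subunit and holds iron-sulfur clusters, and NDUFV1 binds NADH and the flavin. NDUFS1 had signals of 8.81, 9.05 and 9.47 in the first year and 8.58, 8.97 and 9.56 in 2011, and both years overlapped almost fully. Its slope was -0.0182 ± 0.0121 (adjusted p = 0.214). That of NDUFV1 was 0.0142 ± 0.00866 (adjusted p = 0.175). The accessory subunits NDUFA5, NDUFB2 and NDUFV3 had slopes of 0.00370, -0.00958 and 0.00125, each with an adjusted p of 0.385 or more.

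**Figure D2:**
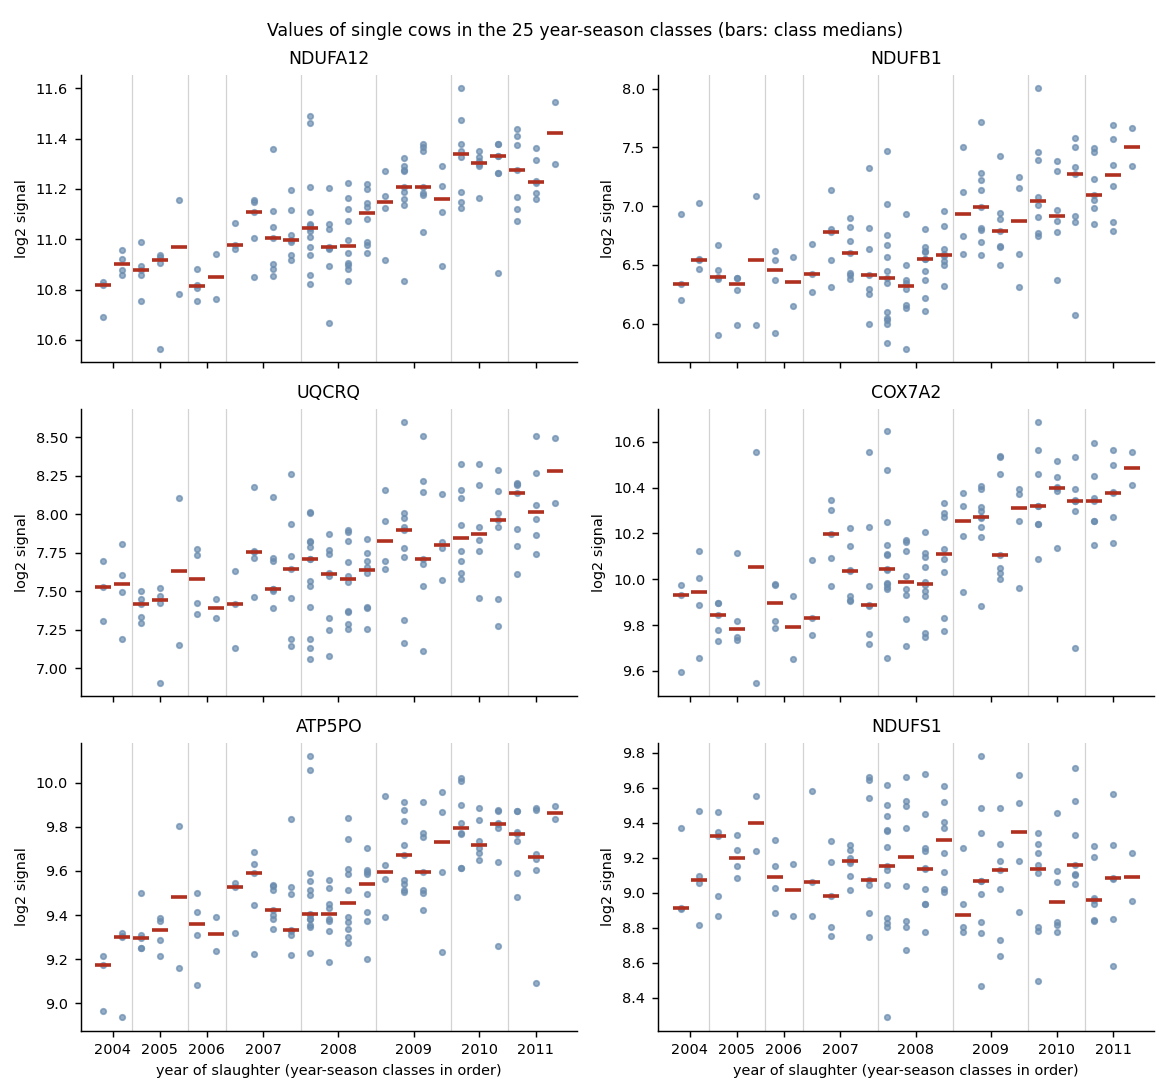
Log2 signals of single cows (points) and class medians (bars) of 6 transcripts in the 25 year-season classes, in order of time, with grey lines between years. NDUFA12, NDUFB1, UQCRQ, COX7A2 and ATP5PO lie higher from 2009 on, whereas the yearly medians of NDUFS1 lie between 8.97 and 9.25.

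The assembly factors of complex I were more mixed, with 3 of 6 higher and 1 lower. NDUFAF8 rose by 0.0651 ± 0.0114 per year (adjusted p = 8.91e-07), NDUFAF4 by 0.0514 and NDUFAF3 by 0.0482. NDUFAF1, which helps to assemble the membrane arm, had signals of 8.78, 9.14 and 9.59 in the first year and 8.62, 9.04 and 9.32 in 2011, and 4 of 15 cows of 2011 lay below every cow of the first year. Its slope was -0.0293 ± 0.0108 (adjusted p = 0.0196), a call that was lost without the second year, where the slope was -0.0283 (adjusted p = 0.067), and without 2011, where the slope was -0.00872 (adjusted p = 0.624). NDUFAF6 and NDUFAF7 had slopes of 0.00658 and -0.00854 and did not pass.

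In complex II, which oxidises succinate and also belongs to the tricarboxylic acid cycle, the iron-sulfur subunit SDHB and the membrane anchor SDHD were higher with year, with slopes of 0.0306 ± 0.0071 (adjusted p = 0.000194) and 0.0418 ± 0.00838 (adjusted p = 1.65e-05). The flavoprotein SDHA, which carries the active site for succinate, had a slope of 0.0124 ± 0.00873 (adjusted p = 0.245). SDHD was highest in 2009 and 2010, with medians of 9.95 and 9.98, and had a median of 9.80 in 2011 against 9.73 in the first year. Of the complex II assembly factors, 3 of 4 were higher. SDHAF4, which binds SDHA before it joins SDHB, had signals of 7.14, 7.45 and 7.70 in the first year and 7.62, 8.02 and 8.36 in 2011. All but 1 of the 15 cows of 2011 lay above every cow of the first year, and the slope was 0.0963 ± 0.0119 (adjusted p = 2.38e-11). SDHAF3 had a slope of -0.000534 and did not pass.

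Complex III transfers electrons from ubiquinol to cytochrome c, and 5 of its 8 transcripts were higher. They were the small subunits UQCRQ, UQCR10, UQCR11 and UQCRH and, with a smaller slope of 0.0233, the core protein UQCRC1. UQCRQ had signals of 7.19, 7.52 and 7.81 in the first year and 7.61, 8.07 and 8.51 in 2011, with 12 of 15 cows of 2011 above every cow of the first year. Its slope was 0.0934 ± 0.013 (adjusted p = 1.47e-09). The subunits that carry redox centres, UQCRFS1 and CYC1, were not called higher. UQCRFS1, the Rieske iron-sulfur protein, had a slope of -0.0247 ± 0.00972 (adjusted p = 0.0302), with signals of 7.16, 7.35 and 7.91 in the first year and 6.97, 7.27 and 7.71 in 2011, and CYC1, cytochrome c1, had a slope of -0.000134 ± 0.00704 (adjusted p = 0.990). UQCRB did not pass either, with a slope of 0.00397. The call of UQCRFS1 was lost when the first, the second or the third year was left out, with slopes of -0.0245, -0.0158 and -0.0231 (adjusted p = 0.0681, 0.224 and 0.0521), and without 2010, with a slope of -0.0249 (adjusted p = 0.0678). Among the cows from the fourth year on, its slope was -0.00120 (adjusted p = 0.954).

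CYCS, the soluble carrier between complexes III and IV and a gene the study lists, was higher with year at an adjusted p of 0.0211, and this call was among the least stable. Its signals ran from 4.74 to 5.76 in the first year, with a median of 5.33, and from 5.25 to 6.21 in 2011, with a median of 5.73, and 6 of the 15 cows of 2011 lay above every cow of the first year. The lowest yearly median was 5.05 in the second year, and the highest was 5.83 in 2010. CYCS had the largest spread between cows of the 84, and its mean of 5.61 was among the 3 below 6, together with NDUFB4 at 2.85 and COX7C at 4.86. The call was lost without the first, the second or the third year, with slopes of 0.0556, 0.0404 and 0.0490 (adjusted p = 0.0588, 0.177 and 0.0576), without 2010, with a slope of 0.056 (adjusted p = 0.0543), and among the cows from the fourth year on, where the slope was -0.00918 (adjusted p = 0.850).

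Complex IV, cytochrome c oxidase, had 11 of 12 transcripts higher and none lower, with a median slope of 0.0670. COX7C, a small nuclear-encoded subunit, had the largest slope, 0.131 ± 0.0193 (adjusted p = 8.63e-09). Its signals were 4.34, 4.52 and 5.28 in the first year and 4.92, 5.45 and 6.11 in 2011, and 9 of 15 cows of 2011 lay above every cow of the first year. The medians of these years differed 1.90-fold. A further COX7C transcript, which the annotation shares with another locus and which is no member, had nearly the same slope, 0.131, at a mean of 10.5.

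COX7A1 and COX7A2 are the muscle-type and the widely expressed isoform of the same complex IV subunit, and both rose. COX7A2 had signals of 9.60, 9.93 and 10.12 in the first year and 10.15, 10.37 and 10.60 in 2011. No cow of 2011 reached down to the range of the first year, and the slope was 0.0870 ± 0.00889 (adjusted p = 9.91e-15). COX7A1 had a slope of 0.102 ± 0.0139 (adjusted p = 6.00e-10), with 14 of 15 cows of 2011 above every cow of the first year. COX7A2L, which the study lists and which takes part in joining complexes III and IV into supercomplexes, was the transcript of complex IV that did not pass. Its signals were 11.68, 11.89 and 12.07 in the first year and 11.53, 11.94 and 12.12 in 2011, the slope being 0.0140 ± 0.00664 (adjusted p = 0.0753). COX5A, COX4I1, COX6A1, COX6C, COX7B, COX8A, COX8B and NDUFA4, which was long counted as a complex I subunit, were higher, with slopes between 0.0249 for COX6A1 and 0.0764 for NDUFA4.

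ATP synthase had 13 of 16 transcripts higher and none lower. ATP5PO, the protein at the top of the peripheral stalk, had signals of 8.94, 9.21 and 9.32 in the first year and 9.09, 9.77 and 9.89 in 2011. A single cow of 2011 fell within the range of the first year, and the other 14 lay above it. The medians differed 1.47-fold and the slope was 0.0821 ± 0.00828 (adjusted p = 6.06e-15). ATP5MF, the f subunit in the membrane part, had signals of 11.37, 11.59 and 11.70 in the first year and 11.75, 11.90 and 12.10 in 2011, without overlap, and a slope of 0.0705 ± 0.00827 (adjusted p = 3.46e-12). NDUFA12, COX7A2 and ATP5MF were the 3 of the 84 in which every cow of 2011 lay above every cow of the first year, which held for 0.319% of all transcripts. The 3 genes of the c subunit, ATP5MC1, ATP5MC2 and ATP5MC3, which encode the same mature protein of the rotor ring, were all higher, with slopes of 0.0470, 0.0824 and 0.0901.

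Of the catalytic head, the alpha subunit ATP5F1A rose by 0.0398 ± 0.00651 per year (adjusted p = 1.68e-07) and the beta subunit ATP5F1B did not pass, with a slope of 0.00223 ± 0.00308 (adjusted p = 0.578). The signals of ATP5F1B ran from 12.62 to 12.74 in the first year and from 12.58 to 12.74 in 2011. ATP5PB, the b subunit of the peripheral stalk and the third gene the study lists, under its older name ATP5F1, had a slope of 0.0179 ± 0.00918 (adjusted p = 0.102). ATP5MG had a slope of -0.00656. The inhibitor ATP5IF1, which blocks ATP hydrolysis when the proton gradient fails, was higher with year, with medians of 11.81 in the first year and 12.09 in 2011 and a slope of 0.0406 ± 0.00565 (adjusted p = 1.50e-09). Beyond the members, 11 of the 12 transcripts that share one of these symbols with further genes were higher with year, and that of UQCRC2 did not pass.

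The yearly medians were also compared directly. For 58 of the 84 transcripts, the medians of 2009, 2010 and 2011 all lay above the medians of each year up to 2008, against 19.8% of all transcripts, and for none did they all lie below. This division at 2009 was chosen after the values had been seen. Among the cows up to 2008, only NDUFA12, COX7A2 and ATP5PO were higher with year, 3 of 84 against 2.45% of all transcripts, and the median slope was 0.0169. Among the cows from 2009 on, 13 were higher, against 3.09% of all transcripts, with a median slope of 0.0571, and NDUFAF1 was lower. These 13 were NDUFA6, NDUFA11, NDUFB11, NDUFS3, NDUFV2, NDUFAF8, COX5A, COX6A1, COX7C, ATP5MC3, ATP5MF, ATP5MJ and ATP5PF. Both periods held fewer cows than the whole series, and the difference between their slopes was not tested.

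**Figure D3:**
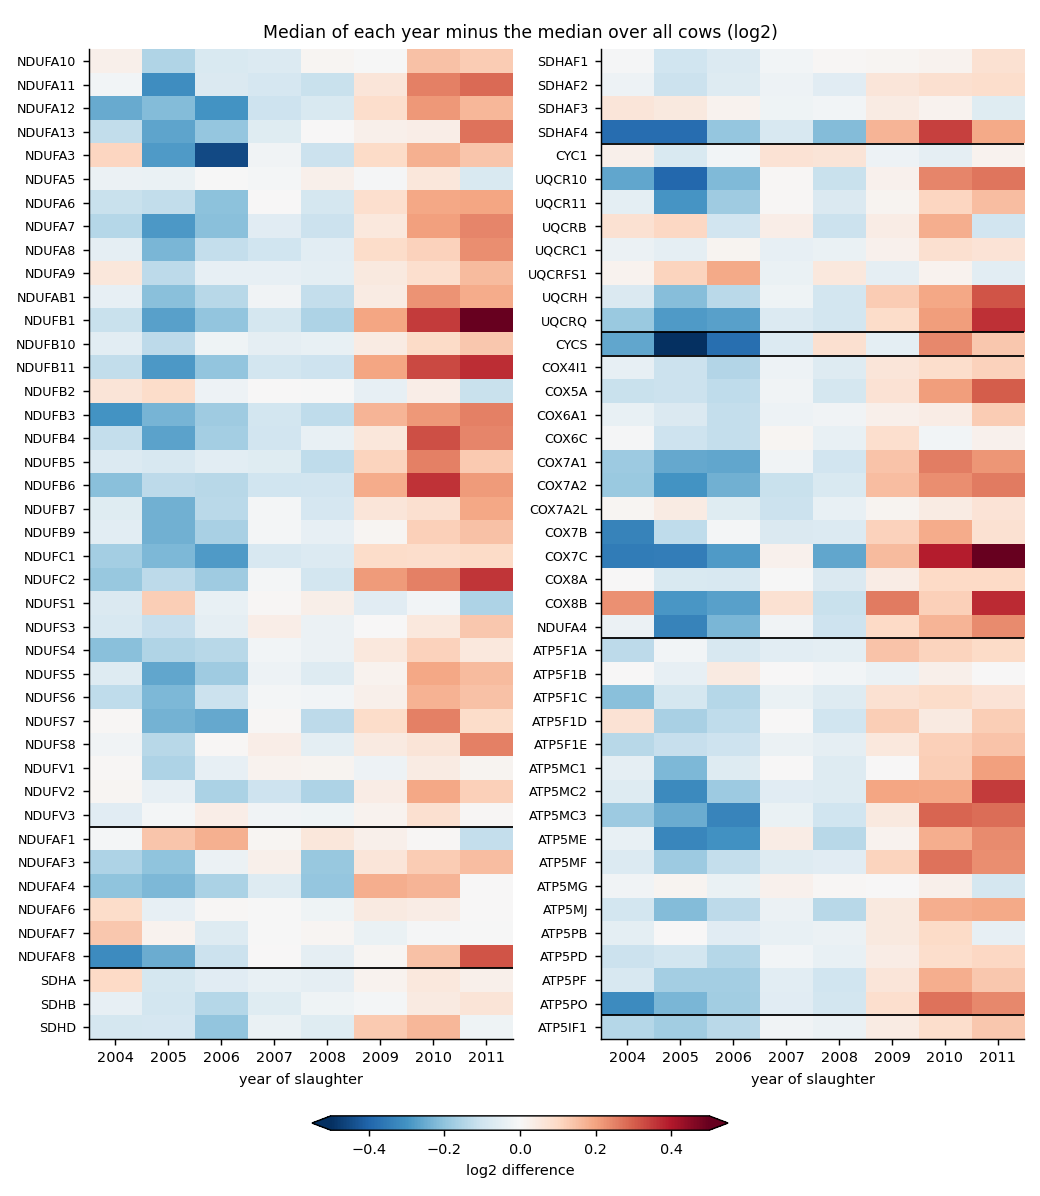
Median log2 signal of each year minus the median over all 145 cows, for each of the 84 transcripts (vertical axis, with black lines between complexes) and each year of slaughter (horizontal axis). Red cells stand for higher and blue cells for lower values, and for 58 transcripts the 3 years from 2009 on are all above every year before.

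The year calls were set against the axis that dominated the arrays. With the first principal component of the values as a covariate, 58 of the 84 were higher with year, against 23.9% of all transcripts, and the median slope was 0.0339. The 12 that lost a call of higher were NDUFA3, NDUFA9, NDUFA10, NDUFS7, NDUFS8, NDUFAF3, SDHAF1, SDHAF2, UQCRC1, COX6C, COX8B and ATP5F1D. The calls of lower for UQCRFS1 and NDUFAF1 were lost as well, NDUFA5, UQCRB and ATP5PB were newly called higher, and CYC1 was newly called lower, with a slope of -0.0159 (adjusted p = 0.00970). In all, 51 of the 67 stayed higher in each of 17 alternative fits over the range of years. Fits with a period before or after 2009 alone were not counted among them. Over the 17, between 20.1% and 27.1% of all transcripts tested were higher. How many of all transcripts stayed higher in each fit was not counted. Transcripts with a mean under 6 were not tested in 1 of the 17. Leaving out single years moved the count as well: 61 were higher without the second year, 61 without 2010 and 60 without 2011, against 21.8%, 20.8% and 20.1% of all transcripts. The calls lost in 1 or more of these 3 fits were those of NDUFA9, NDUFA13, NDUFS8, NDUFV2, NDUFAF3, SDHAF1, SDHAF2, UQCRC1, CYCS, COX6C and ATP5F1D, and ATP5PB was gained without 2011. SDHAF2 also lost its call without the 5 arrays that stood apart. COX7A2L was called higher without the first year and from the fourth year on, where SDHAF1, COX6C and COX7B were not called.

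Markers of other cells were examined beside the year slopes. None of the 10 chromaffin markers was called in either direction. The log2 of their summed signal was 12.2 to 14.8 in the first year, with a median of 14.1. In 2011 it was 13.1 to 15.2, with a lower median of 13.6. With the mean of these markers as a covariate, 67 of the 84 transcripts were still higher, against 26.4% of all transcripts, and 2 were lower. Across cows, the residuals of the 84 correlated with the mean of the chromaffin markers at -0.239 to 0.303. Of 7 macrophage markers AIF1 alone was higher, and of 5 endothelial markers PECAM1 alone. PDGFRB of 5 markers of smooth muscle and pericytes and PDGFRA of 3 of fibroblasts were lower, and no marker of T and NK cells (3) or of nerve (2) was called. Of the adipocyte and striated muscle lists only LPL and DES, which is also on the smooth muscle list, were measured, ADIPOQ, FABP4, PLIN1, UCP1, ACTA1 and CKM not being among the transcripts, and no erythroid marker was. The summed log2 signals of the first year and 2011 were 12.0 to 12.9 and 11.9 to 12.8 for macrophages, 11.8 to 12.4 and 11.4 to 12.2 for endothelium, 12.0 to 12.4 and 11.5 to 12.7 for smooth muscle, and 12.3 to 12.8 and 11.9 to 13.1 for fibroblasts. The part of AIF1, PECAM1, PDGFRB and PDGFRA in the result was not tested. Of the 8 adrenocortical markers, FDX1 and CYP11A1 were higher and SCARB1, the receptor for high-density lipoprotein, was lower, with slopes of 0.0198, 0.0145 and -0.00818, and their summed log2 signal was 15.7 to 15.9 in both years.

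Lists of related genes were described in the same fit by counts and medians. Of all transcripts, 25.7% were higher and 19.2% lower, with a median slope of 0.00255. Of 32 measured assembly factors outside the naming rule, 18 were higher and 5 lower, with a median slope of 0.0311. The copper chaperone of complex IV COX17 rose by 0.0808 ± 0.0107 per year (adjusted p = 3.07e-10), and the complex IV assembly factors COX14 and COX16 rose by 0.0683 and 0.0816. TACO1, an activator of the translation of a complex IV subunit, had a slope of -0.0348 (adjusted p = 6.99e-05). Of 9 genes listed for mitochondrial antioxidant defence 8 were higher, led by the peroxiredoxin PRDX5 at 0.0798 and the glutaredoxin GLRX2 at 0.0528. The list was broad, and CAT, 1 of the 8, encodes a mainly peroxisomal enzyme. Of 11 genes of ubiquinone synthesis 6 were higher and 1 lower, with COQ5, a methyltransferase of the pathway, at 0.0549 (adjusted p = 3.81e-10). With the first component as a covariate, 23.9% of all transcripts were higher. Of the 9 antioxidant genes 5 were then higher, the calls of TXN2, GPX4 and GLRX5 being lost. The counts were 16 higher and 3 lower for the assembly factors and 6 higher and 1 lower for ubiquinone synthesis.

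In the other lists, between 7.14% and 33.3% were higher, against 25.7% of all transcripts, of which 19.2% were lower. Of 17 genes of the tricarboxylic acid cycle 5 were higher and 2 lower, with a median slope of 0.00596, SUCLG1 and IDH3B being the highest and PDHA1 and FH the lower ones. Of 14 regulators of mitochondrial biogenesis only SSBP1, which binds single-stranded mitochondrial DNA, was higher, and SP1, TFB1M, MTERF2 and TFAM were lower, with a median slope of -0.0114. TFAM, which packages mitochondrial DNA and starts its transcription, had a slope of -0.0548 (adjusted p = 0.0150). Its residuals correlated at -0.910 with the first component of the residuals. With the first component of the values as a covariate, its slope was 0.000577 (adjusted p = 0.968). Glycolysis had 2 of 12 higher (PGK1 and GAPDH), and mitochondrial carriers 2 of 7 (SLC25A3 and SLC25A4). The electron transfer and mitochondrial enzymes of steroid synthesis had 2 of 6 higher (FDX1 and CYP11A1). On the list of hypoxia targets, 2 of 9 were higher (VEGFA and NDRG1). The 2 lower ones were HIF1A and EPAS1, which are themselves hypoxia-inducible factors. With the covariate, 23.9% of all transcripts were higher. The counts of higher and lower were then 8 and 2 for the tricarboxylic acid cycle, 5 and 2 for the regulators and 1 and 3 for glycolysis. They were 0 and 1 (EPAS1) for the hypoxia list, 2 and 1 for carriers and 1 and 2 for steroid synthesis.

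**Figure D4:**
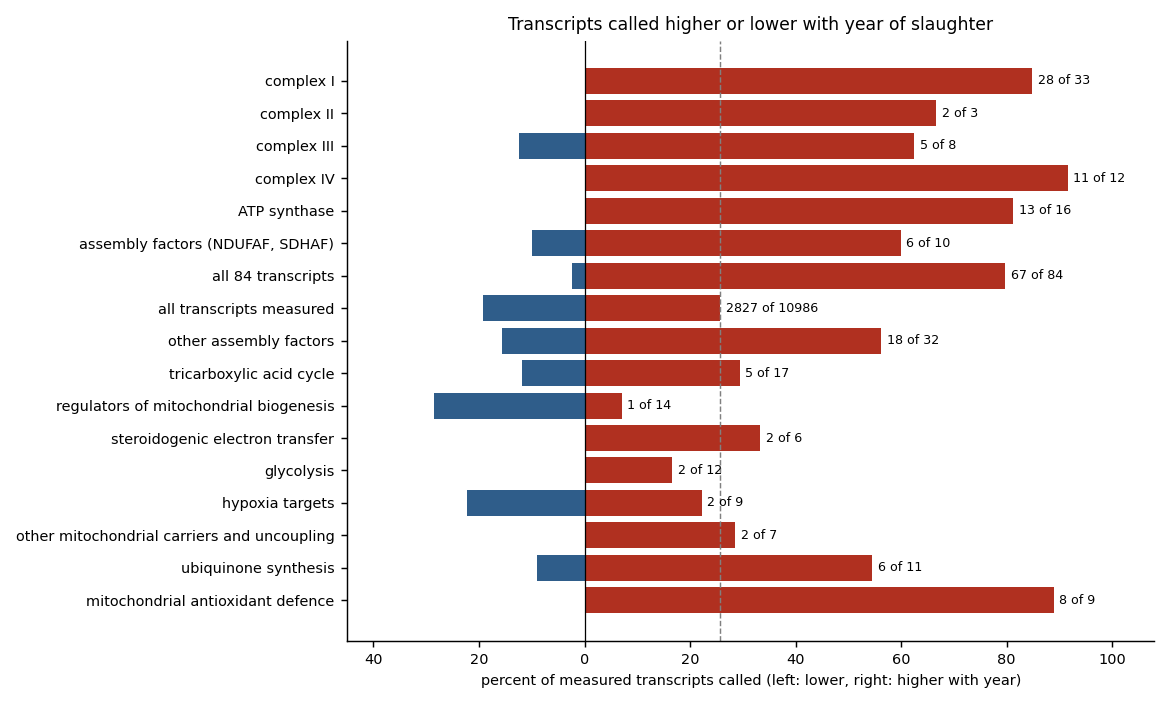
Percent of the measured transcripts of each group that were called higher (red, right) or lower (blue, left) with year of slaughter, with the counts of those higher written beside the bars and a dashed line at the share of all transcripts. Complex IV reaches 91.7% and complex I 84.8%, against 25.7% of all transcripts, and regulators of mitochondrial biogenesis have 1 of 14 higher.

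The second comparison asked whether any of the 25 year-season classes differed, without assuming a trend. In the F-test of limma, 42 of the 84 (50%) passed, against 11.6% of all transcripts. They were 16 of 33 in complex I, 1 of 3 in complex II (SDHD), 5 of 8 in complex III, CYCS, 7 of 12 in complex IV, 9 of 16 in ATP synthase, ATP5IF1, and NDUFAF4 and SDHAF4 among the assembly factors. Of the 6 core subunits of complex I, only NDUFV2 passed. The smallest adjusted p was again that of NDUFA12, 1.03e-08. Of the 42, 41 were also higher with year, the exception being UQCRFS1. Because differences between classes include those between years, in the same values, this overlap is no separate support for the year slopes.

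Season was examined in the fit with year, and age in the fit with the classes. No member passed for summer against winter or for any difference between the seasons, as was true of 0% of all transcripts, and limma gave 7 and 6 members with an unadjusted p under 0.05, or 8.33% and 7.14% against 11.8% and 12.4% of all transcripts. UQCRFS1 had the smallest p, its signal being lower in summer by a difference of -0.173 on the log2 scale (adjusted p = 0.223). For the slope on age, likewise 0% of all transcripts and no member passed, and by limma 6 members (7.14%) had an unadjusted p under 0.05, against 8.47% of all transcripts. Their slopes ran from -0.0693 ± 0.0267 per 100 days for COX7A1 to -0.0248 ± 0.0124 for NDUFS3, and the smallest adjusted p of the 84 was 0.590. In simulated data, a summer-winter difference of 0.5 residual SD was found for 3% of the altered transcripts, and one of 1 residual SD for 56%. An age slope of 0.25 residual SD per 100 days was found for 39%, and one of 0.5 for 100%. With this number of arrays, seasonal differences of such sizes and small differences between ages may not be detectable.

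Differences between single cows were described once class means and age had been removed. The residual SD of the 84 had a median of 0.209, against 0.25 over all transcripts, and 35 of the 84 lay above the median of transcripts in the same decile of mean level. ATP5F1B, the catalytic beta subunit, had the smallest residual SD, 0.0592, at percentile 0.910 of its decile. NDUFAF6, COX6A1, NDUFC1 and ATP5F1E followed, at percentiles 2.00 to 8.37. At the other end stood COX8B, a subunit isoform of muscle, with an SD of 0.463 at percentile 91.3, then the core subunit NDUFS7, the assembly factor NDUFAF3, CYCS and the delta subunit ATP5F1D. CYCS had the largest SD, 0.464.

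A normal mixture of several components was preferred to a single one for 3 of the 84 (3.57%), against 5.21% of all transcripts. They were NDUFA9 with 29 low cows, ATP5F1B with 11 and ATP5MJ with 11. All 11 low cows of ATP5MJ and 9 of the 11 of ATP5F1B were among the 29 of NDUFA9, those of ATP5F1B and ATP5MJ shared 4 animals, and the arrays that stood apart were 5 of the 29 low cows of NDUFA9 and 3 of the 11 low cows of both ATP5F1B and ATP5MJ. With components of unequal variance NDUFA9 was left with 1 component and NDUFB3 had several.

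The first component of the residuals split all transcripts, and also those of 1 complex, into opposite directions. Of the 84, 59 correlated positively with it and 25 negatively, from -0.847 for NDUFS1 to 0.887 for ATP5F1D. Over all transcripts, 54.8% correlated positively. The median absolute correlation was 0.683 for the 84, against 0.527 for all transcripts. Within complex I, the core subunits NDUFS1 and NDUFV1 stood on opposite sides, at -0.847 and 0.847. Besides NDUFS1, strong negative correlations were those of NDUFB2 (-0.834), UQCRB (-0.780), NDUFAF1 (-0.749), ATP5MG (-0.673) and NDUFS4 (-0.663). The component was computed over all transcripts, and what it reflects was not tested. Its yearly medians ran from -0.106 in the fourth year to 0.232 in 2010. Because class means had been removed from the residuals, these medians cannot show a change over years. The first component of the values, computed separately with class means and age kept, was the one used as a covariate. Its yearly medians ran from -0.536 in the second year to 0.613 in 2011.

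**Figure D5:**
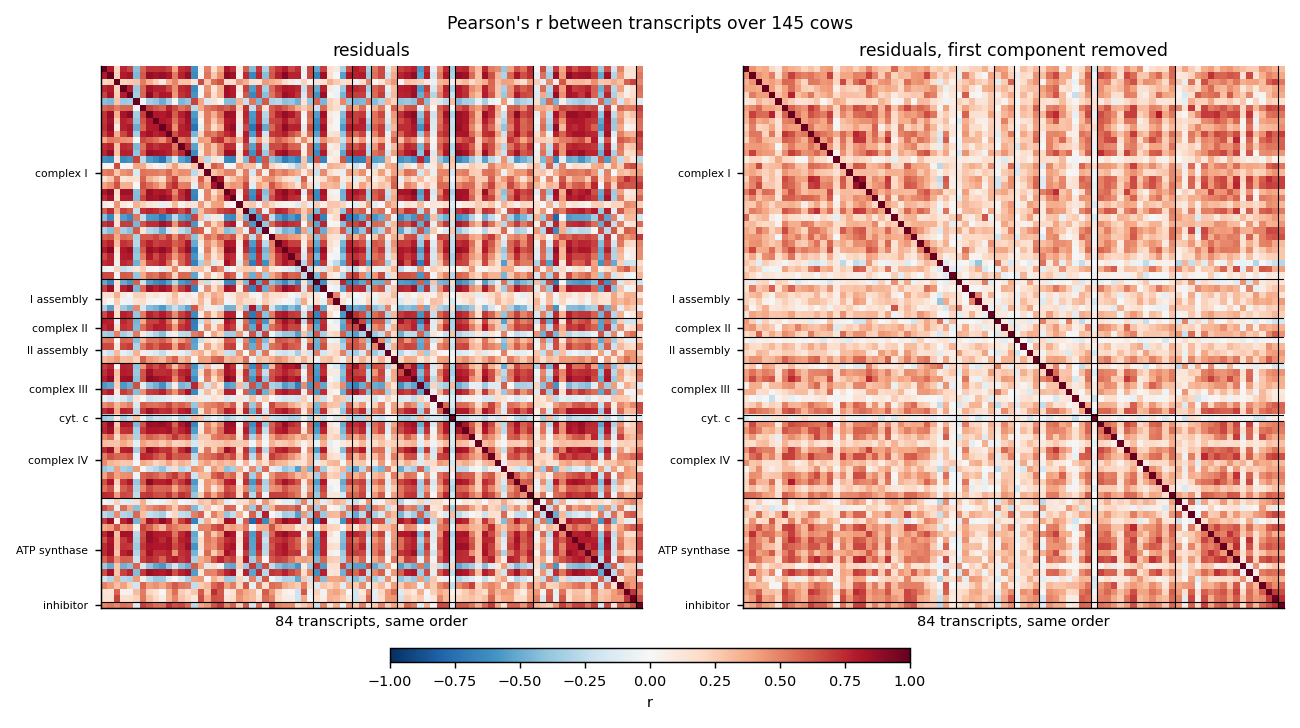
Pearson's r of residuals over 145 cows between all pairs of the 84 transcripts, grouped by complex along both axes, before (left) and after (right) the first principal component of all transcripts was removed. The blue stripes of transcripts such as NDUFS1 and NDUFB2 in the left panel are absent in the right one, where 95.2% of the pairs within a complex are positive.

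Pairs of the 84 correlated more than pairs of transcripts at large, but hardly more within a complex than between complexes. The mean residual r was 0.325 over the 745 pairs within a complex, 0.321 over the 1811 pairs between complexes and 0.00540 over all pairs of transcripts, all over the same 145 arrays. Once the first component was removed, the means were 0.332, 0.317 and 0.00929. The share of positive pairs within a complex rose from 77.3% to 95.2%, while that over all pairs of transcripts was 50.1% and 51.0%. By complex, the mean r was 0.331 in complex I, 0.222 in complex III, 0.411 in complex IV and 0.284 in ATP synthase. In complex II it was -0.0635 over its 3 pairs, which had the opposite sign, 0.0457, without the first component.

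NDUFA7, NDUFAB1, NDUFC2, NDUFB11 and NDUFA11 followed the mean of the other transcripts of their complex most closely, with r between 0.840 and 0.883. NDUFAB1 is also the acyl carrier protein of mitochondrial fatty acid synthesis. UQCRB, NDUFB2, SDHD, NDUFS1 and NDUFA5 followed it least, with r of -0.503, -0.480, -0.470, -0.461 and -0.246. With the first component removed these 5 values became positive, from 0.0293 for SDHD to 0.386 for UQCRB. The highest single correlation was then 0.850, between NDUFB5 and NDUFB6 of the membrane arm of complex I, and NDUFA7 correlated at 0.789 with COX8A of complex IV. The lowest was -0.384, between NDUFV1 and the assembly factor NDUFAF6.

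A set of 12 pairs of partners and isoforms was tested with 100000 permutations, two-sided, with adjustment over the 13 values that they gave. The smallest raw p that these permutations could give was 1e-05. They test whether r differs from that of unrelated values. Over all pairs of transcripts r had an SD of 0.347, and of 0.173 with the first component removed. A pair can thus pass without standing apart from pairs of transcripts at large. The 3 genes of the c subunit of ATP synthase correlated with each other at 0.775 to 0.791 (Spearman's rho 0.740 to 0.761, permutation adjusted p = 1.62e-05 for each r and 1.86e-05 for each rho), and still at 0.50 to 0.588 without the first component. The isoforms COX7A1 and COX7A2 correlated at 0.633 (rho = 0.581), COX8A and COX8B at 0.590 (rho = 0.548), and COX7A2 and COX7A2L at 0.369 (rho = 0.331), each with a permutation adjusted p of 1.62e-05 for r and of at most 8.12e-05 for rho. Leaving out the 2 most distant cows gave 0.776 to 0.791 for the c subunit genes and 0.612, 0.570 and 0.344 for these pairs, and removal of the first component gave 0.513, 0.293 and 0.305.

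Other partners depended on the first component. SDHA and SDHB, which form the catalytic part of complex II, correlated at 0.668 (rho = 0.637, permutation adjusted p = 1.62e-05 and 1.86e-05), and at 0.0937 (permutation adjusted p = 0.342) once it was removed. NDUFS1 and NDUFV1, neighbours in complex I, correlated at -0.689 (rho = -0.685, with the same adjusted p as SDHA and SDHB), and at 0.104 (permutation adjusted p = 0.311) once it was removed. For NDUFV1 and NDUFV2 the values were -0.282 (rho = -0.257, permutation adjusted p = 0.000806 and 0.00259) and -0.141, and for CYCS and CYC1 they were -0.290 (rho = -0.292, permutation adjusted p = 0.000491 and 0.000636) and -0.0371. Without the 2 most distant cows, r in these 4 pairs was 0.667, -0.683, -0.323 and -0.283, and for ATP5PB and ATP5PD it was 0.0929. ATP5PB and ATP5PD of the peripheral stalk went the other way, from 0.155 (rho = 0.125, permutation adjusted p = 0.0746 and 0.158) to 0.322 (permutation adjusted p = 0.000156). ATP5F1A and ATP5F1B, which alternate in the catalytic head, were described within the components of ATP5F1B, a split by its own values that narrows its range, so that no test is read from them. Here r was -0.0427 in the 134 cows of the upper component and 0.102 in the 11 of the lower one, and -0.00863 and -0.0612 without the 2 most distant cows of each.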

How the data were processed

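RNA of the adrenal cortex of 145 cows was hybridised to a custom Affymetrix bovine gene array. The deposited log2 signals came from the authors' RMA run in Expression Console (background correction, quantile normalisation between arrays, summary over probes), after which the authors kept transcripts detected above background. Versions are not given in the sources used here. The columns of 2 samples held no values and were left out. In the platform annotation 8822 transcripts had a single symbol, 418 several entries and 1746 none, and all 84 members carried the same symbol in RefSeq. Correlations were computed in Python 3.11.15 with scipy 1.17.1. The members and the gene lists were chosen with earlier results of these data known.

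Values were fitted in R 4.3.3 with limma 3.58.1 (lmFit and eBayes), with Benjamini-Hochberg adjustment over all 10986 transcripts and 0.05 as the threshold. A fit with 25 classes and age, with 119 residual degrees of freedom, gave the class test, the age slope and the residuals. For the year slope and the season, the class entered as a random effect through duplicateCorrelation (statmod 1.5.0). Its correlation, 1 value for all transcripts, was estimated at -0.0154 in the year fit and -0.0417 in the season fit. The block therefore did not make the tests more cautious: without it 24.8% of all transcripts were higher with year, against 25.7% with it. The p-values of these fits thus treat cows of 1 class much as independent and may be too small. Components were chosen by BIC with mclust 6.1.1. The sire and dam terms of the study's model were not refitted. Summed signals of marker lists are log2 of the sum of linear signals. The number of arrays limits the precision.

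Named with full values were members past the threshold, up to 6 per complex and fit by smallest p, the 5 with the largest and smallest spread and correlation with their complex, members of 12 pairs of partners and isoforms, and CYCS, ATP5PB and COX7A2L. Further members are named to account for all 84. Of related lists, up to 3 genes past the threshold by smallest p are named; further ones were picked after their values were seen. Each model was tested on simulated data in which 100 transcripts per effect size were altered. Alternatives changed the filter, array centring, prior, block, years, season term and the first component as a covariate. Fits up to 2008, from 2009 on and with the chromaffin markers as a covariate were added after the data had been seen. Older symbols were mapped to current ones, such as ATP5F1 to ATP5PB.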

Additional observations from a re-analysis of the deposited data

Results flagged for a closer look

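Dixon's test was applied to the years with 6 or 7 cows for the 28 transcripts considered for values by year, 56 groups in all, and chance alone marks about 1 in 20 groups. In 3 of them a single cow stood far from the rest. The highest cow of the first year for NDUFB6, a subunit of the membrane arm of complex I, had a log2 signal of 8.226 against 8.007 for the next of 7 cows. The highest cow of the third year for UQCRH, the hinge protein of complex III, had 7.936 against 7.566 for the next of 6. The lowest cow of the third year for UQCRFS1, the Rieske protein, had 6.954 against 7.498 for the next of 6, and without that year the slope of UQCRFS1 was -0.0231 (limma, adjusted p = 0.0521), against -0.0247 with it.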

How the results depend on the processing

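Of the 67 transcripts higher with year, 51 were called higher in each of 17 alternatives over the range of years. The count ran from 58 to 67 over them, and the share of all transcripts tested from 20.1% to 27.1%. How many of all transcripts were called higher in each was not counted. The count of lower ones was 2 in the fit reported and 1 with the first principal component as a covariate, 1 without the first year, 0 without the second year, 1 without the third year, 1 without 2010, 1 without 2011 and 1 among the cows from the fourth year on. In 2 fits added after the data had been seen, 3 were higher and 0 lower among the cows up to 2008, and 13 were higher and 1 lower among the cows from 2009 on; both hold fewer cows. The slope of ATP5F1D became -0.000128 with the first component as a covariate, and that of CYCS became -0.00918 from the fourth year on. Up to 2008 the slopes per year turned for ATP5F1D (-0.00477), COX4I1 (-0.0005985), COX5A (-0.0123), COX7C (-0.0164), COX8A (-0.0179), NDUFA9 (-0.00885), NDUFA11 (-0.00340), NDUFAF1 (0.00120), NDUFAF3 (-0.0336), NDUFAF4 (-0.0217), NDUFB1 (-0.00310), NDUFB5 (-0.00782), NDUFB10 (-0.00505), NDUFS7 (-0.0260), NDUFV2 (-0.0262), SDHAF2 (-0.0106) and UQCRC1 (-0.0159). From 2009 on they turned for COX7B (-0.00773), NDUFAF4 (-0.0119), SDHD (-0.0377) and UQCRFS1 (0.0108). The mean r within complex II changed from -0.0635 to 0.0457 without the first component and to 0.0547 with class means and age kept. Without that component r became 0.104 for NDUFS1 and NDUFV1 and 0.0511 for ATP5F1A and ATP5F1B in the upper component. The causes of these changes were not tested. Leaving out each cow of the classes with up to 5 cows in turn gave 40 to 43 members that differed between classes and 0 for age. No paired analysis was possible because replicate numbers only name the cows within a class. The number of arrays limits what could be detected, above all for season.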
